A study of Mus musculus with 11 samples.

Results

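The BCL2 family decides whether a cell commits to the mitochondrial route of apoptosis, and 10 of its genes were followed in cultured mouse neural progenitor cells (NPCs) with and without *Smg6*, which encodes an endonuclease of nonsense-mediated mRNA decay. The genes were selected by symbol, with earlier results of these data known, and are 10 of the 53801 gene identifiers counted. They comprise 7 pro-apoptotic genes, of which 2 encode effectors (*Bax*, *Bak1*) and 5 encode BH3-only proteins (*Bbc3*, *Pmaip1*, *Bcl2l11*, *Bid*, *Bad*), and 3 protective genes (*Bcl2*, *Bcl2l1*, *Mcl1*). All 10 passed the filter on low counts in every comparison.

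The NPCs came from brains of E13.5 embryos on a mixed C57BL/6 and 129SV background, and all of them carried the floxed *Smg6* allele on both chromosomes (Smg6 Flox/Flox). Total RNA depleted of ribosomal RNA was sequenced in 11 libraries. Ctr consisted of 3 embryos with the RosaCreER transgene (RosaCreER tg/+) and without treatment. Ctr + 4-OHT consisted of 4 embryos without the transgene (RosaCreER +/+), treated with 1 µM 4-hydroxytamoxifen (4-OHT), the ligand that activates CreER. *Smg6*-iKO consisted of 4 embryos with the transgene (RosaCreER tg/+), treated with 1 µM 4-OHT. The labels give 3 days with 4-OHT, and the study's methods give RNA isolation at day 6 after treatment. Elsewhere the study describes culture in the presence of 4-OHT for that whole time, so the length of exposure is not settled. The Rosa26 locus drives the recombinase in all cell types, so that every kind of cell in the cultures could be recombined. Embryos SMH_128, SMH_132 and SMH_133 gave both a Ctr and a *Smg6*-iKO library, and the 3 comparisons share libraries with one another.

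In this family, the effectors BAX and BAK assemble in the outer mitochondrial membrane and release cytochrome c, which leads to caspase activation. The protective proteins BCL2, BCL-xL and MCL1 bind and restrain the effectors and the BH3-only proteins. BH3-only proteins convey stress signals, either by engaging the effectors directly or by occupying the protective proteins. The developing brain depends on this balance, since neural progenitors and young neurons are lost or spared by it. The counts are of transcripts per gene. They do not separate the splice forms of *Bcl2l1*, *Mcl1* or *Bcl2l11*, and say nothing of protein stability, cleavage or phosphorylation, by which several of these proteins are regulated.

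Genes were assigned 26.4 M to 33.8 M reads per library, and the least counted of the 10 genes, *Pmaip1*, had between 166 and 409 reads. The gene-level *Smg6* counts do not isolate the floxed part of the gene, and gave 74.4 ± 4.96 CPM (the count of a gene scaled by the size of its library, SD, n = 3) in Ctr, 69.3 ± 3.22 CPM (n = 4) in Ctr + 4-OHT and 66.0 ± 4.57 CPM (n = 4) in *Smg6*-iKO. *Smg6* was not called against Ctr + 4-OHT (log2 fold change -0.059, adjusted p = 0.703, edgeR quasi-likelihood test) or against Ctr (-0.17, adjusted p = 0.148), and was lower against Ctr when embryos were blocked (-0.15, adjusted p = 0.043). Neural progenitor markers were abundant throughout, with a summed level of the 8 markers from 4327 to 5456 CPM. The sums of 5 microglial and 4 erythroid markers did not exceed 1.55 and 0.128 CPM. Those of 4 mesenchymal markers ranged from 85.0 to 516 CPM, and both ends of this range lay in *Smg6*-iKO.

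The levels of the 10 genes were first compared per kilobase of exon, the scale on which different genes can be set side by side. The length was that of all annotated exons of a gene and not of the splice forms expressed, so the order also depends on the annotation. *Bax* (ENSMUSG00000003873, GRCm38 chromosome 7 from 45461697 to 45466898) was the most abundant, with 52.8 ± 4.40 CPM per kb (SD, n = 11). *Mcl1* (ENSMUSG00000038612, chromosome 3 from 95658788 to 95663176) followed with 38.3 ± 1.75 CPM per kb. *Bbc3*, which encodes the BH3-only protein PUMA (ENSMUSG00000002083, chromosome 7 from 16308393 to 16318205), had 35.3 ± 6.38 CPM per kb. *Bax* exceeded *Mcl1* in 11 of 11 libraries, whereas *Mcl1* exceeded *Bbc3* in 8.

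The second effector gene, *Bak1* (ENSMUSG00000057789, chromosome 17 from 27019810 to 27029009), had 16.1 ± 1.09 CPM per kb, below *Bbc3* in 11 of 11 libraries. *Bad* (ENSMUSG00000024959, chromosome 19 from 6941861 to 6951898), whose BH3-only product is controlled by survival kinases, had 10.6 ± 0.632 CPM per kb. *Bcl2l1*, the gene of BCL-xL (ENSMUSG00000007659, chromosome 2 from 152780668 to 152831728), had 9.59 ± 0.660 CPM per kb and lay below *Bad* in 10 libraries.

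The remaining 4 genes were the least abundant. *Pmaip1*, which encodes NOXA, the BH3-only partner of MCL1 (ENSMUSG00000024521, chromosome 18 from 66458604 to 66465550), had 4.00 ± 1.04 CPM per kb. *Bcl2* (ENSMUSG00000057329, chromosome 1 from 106538178 to 106714274), *Bid* (ENSMUSG00000004446, chromosome 6 from 120891930 to 120916853) and *Bcl2l11*, the gene of BIM (ENSMUSG00000027381, chromosome 2 from 128126038 to 128162547), had 3.04 ± 0.270, 3.02 ± 0.548 and 2.95 ± 0.253 CPM per kb. These last levels did not differ beyond their spread: *Bcl2* exceeded *Bid* in only 5 of 11 libraries, and *Bid* exceeded *Bcl2l11* in 8. Among the protective genes, *Mcl1* thus stood far above *Bcl2l1* and *Bcl2* in the NPCs.

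**Figure D1:**
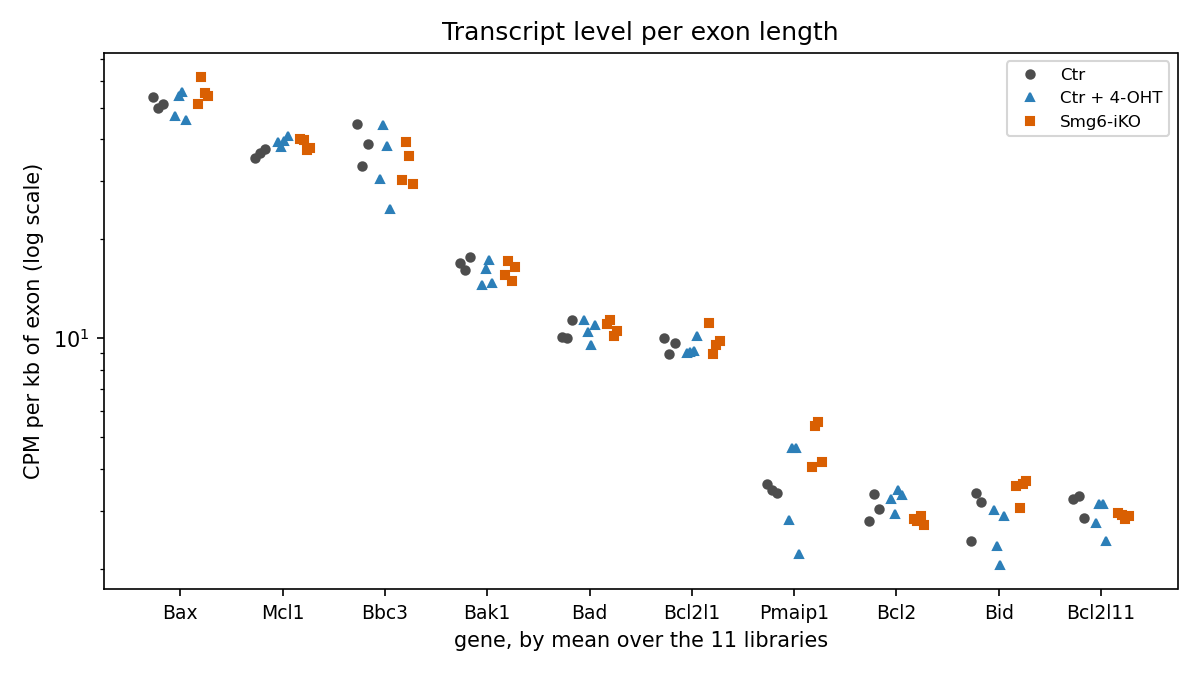
Level of each gene in CPM per kilobase of exon (log axis), ordered by the mean over the 11 libraries, with 1 point per library and a colour and symbol per group. *Bax* lies highest with 45.96 to 61.71 CPM per kb and *Bcl2*, *Bid* and *Bcl2l11* overlap at the bottom.

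The group levels are given in CPM from here on, since each gene is compared with itself. Over the 11 libraries *Pmaip1* had the largest coefficient of variation (SD over mean), 25.9%, followed by *Bid* with 18.2% and *Bbc3* with 18.1%, whereas the other 7 genes had 4.57% to 8.88%. The spread of *Pmaip1* differed between groups, with 2.99% in Ctr, 35.0% in Ctr + 4-OHT and 16.3% in *Smg6*-iKO.

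**Figure D2:**
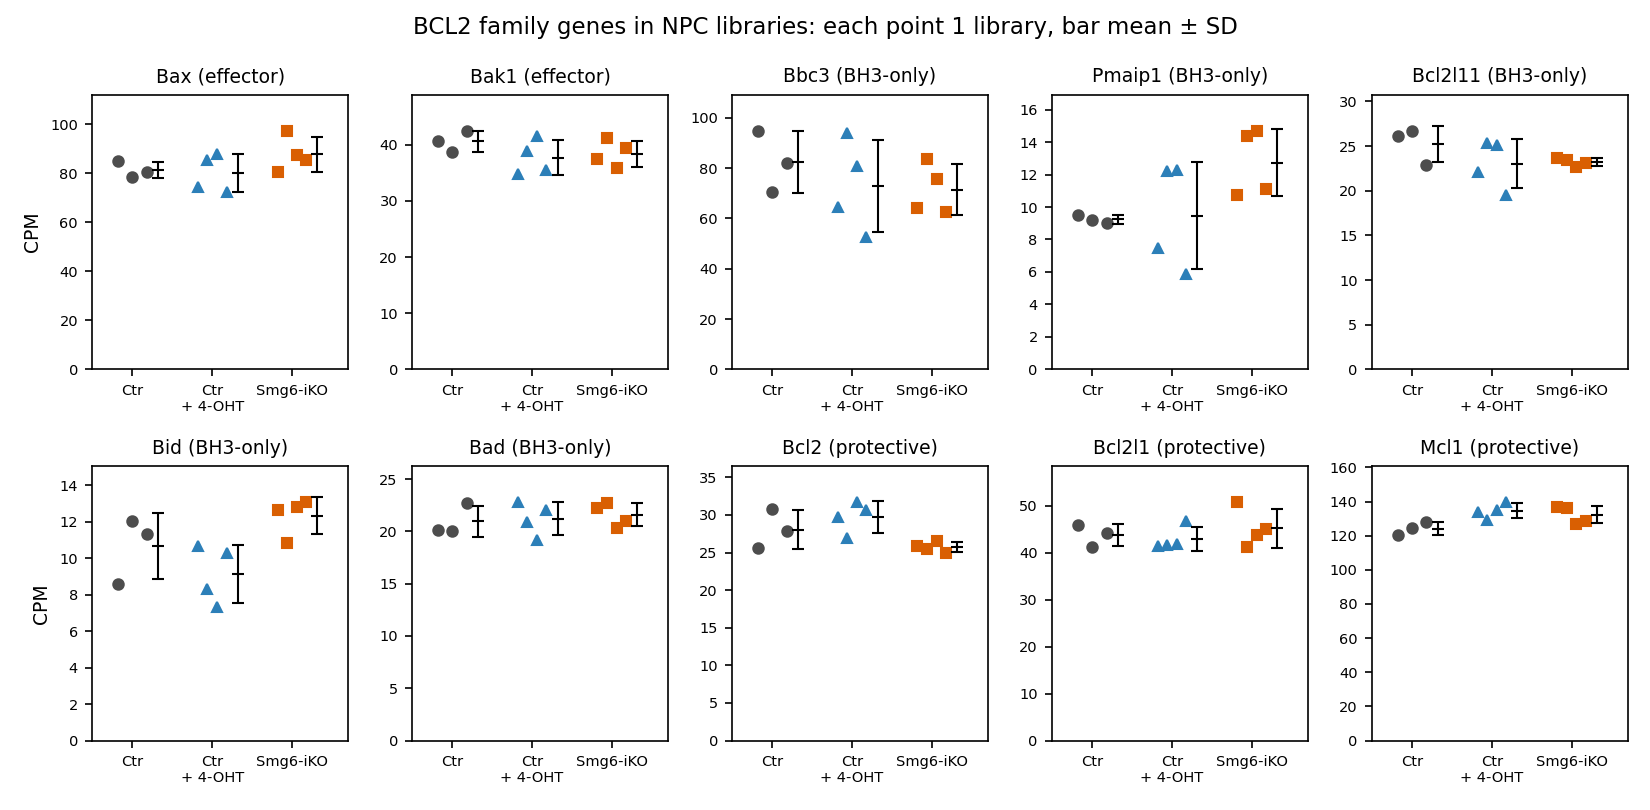
CPM of the 10 genes (vertical axes start at 0) in the Ctr, Ctr + 4-OHT and *Smg6*-iKO libraries, with 1 point per library and the mean ± SD beside the points. *Pmaip1* lies above every Ctr library in the 4 *Smg6*-iKO libraries, and the *Bid* and *Bcl2* points of *Smg6*-iKO do not overlap those of Ctr + 4-OHT.

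The comparison of *Smg6*-iKO with Ctr + 4-OHT, in which both groups received 4-OHT, sets the deletion together with active recombinase against neither. No group had active recombinase and intact *Smg6*, so the deletion and the activity of the recombinase cannot be told apart in any comparison with *Smg6*-iKO. Of the 10 genes, 0 passed an adjusted p of 0.05 in edgeR, against a background of 1.17% of the 17558 genes tested (206 genes, of which 73 were lower, or 156 of 250 after the length correction). At an unadjusted p under 0.05 stood 2, *Bid* and *Bcl2*, beside 16.7% of all genes tested, and the groups of the same 2 did not overlap, beside 1935 of the 17558 genes. DESeq2 called 1, *Bid*, where it called 873 genes in all, and limma-voom called 0. The median log2 fold change was 0.037 over the 7 pro-apoptotic genes and -0.015 over the 3 protective genes, beside 0.012 over all genes tested.

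*Bid*, whose product links death receptors to mitochondria once caspase 8 has cleaved it, had 10.7, 8.31, 7.30 and 10.3 CPM in Ctr + 4-OHT embryos SMH_125, SMH_126, SMH_129 and SMH_131. In *Smg6*-iKO embryos SMH_127, SMH_128, SMH_132 and SMH_133 it had 12.7, 10.8, 12.8 and 13.1 CPM. Every *Smg6*-iKO library thus lay above every Ctr + 4-OHT library, although the highest of the latter and the lowest of the former were close. Its log2 fold change was 0.45 ± 0.13 (SE), with a 95% interval from 0.16 to 0.73, an unadjusted p of 0.0056 and an adjusted p of 0.123. The adjusted p was 0.0332 with the Wald test of DESeq2, and lay between 0.106 and 0.301 when 1 library was left out of the edgeR fit. Against Ctr, where *Bid* had 8.60, 12.02 and 11.3 CPM, the groups overlapped.

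*Bcl2*, the founding protective gene, had 29.7, 26.9, 31.7 and 30.7 CPM in Ctr + 4-OHT embryos SMH_125, SMH_126, SMH_129 and SMH_131. Its values were 25.9, 25.5, 26.5 and 24.9 CPM in *Smg6*-iKO embryos SMH_127, SMH_128, SMH_132 and SMH_133. Here, too, the groups did not overlap, with *Smg6*-iKO on the low side and spread far less, by an SD of 0.667 CPM against 2.08 CPM. Its log2 fold change was -0.20 ± 0.066 (SE), with a 95% interval from -0.35 to -0.054, an unadjusted p of 0.0123 and an adjusted p of 0.168.

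The effectors gave small differences in this comparison. *Bax* had 74.2, 85.4, 87.8 and 72.4 CPM in Ctr + 4-OHT embryos SMH_125, SMH_126, SMH_129 and SMH_131. It had 80.6, 97.3, 87.5 and 85.3 CPM in *Smg6*-iKO embryos SMH_127, SMH_128, SMH_132 and SMH_133. The groups overlapped, with a log2 fold change of 0.14 ± 0.081 (SE) and a 95% interval from -0.037 to 0.32 (adjusted p = 0.412). *Bak1* had 37.7 ± 3.18 CPM (SD, n = 4) in the control and 38.4 ± 2.33 CPM (SD, n = 4) in *Smg6*-iKO, with a 95% interval of the log2 fold change from -0.13 to 0.20.

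*Pmaip1* varied widely within Ctr + 4-OHT, where embryos SMH_125, SMH_126, SMH_129 and SMH_131 had 7.44, 12.3, 12.3 and 5.87 CPM. In *Smg6*-iKO embryos SMH_127, SMH_128, SMH_132 and SMH_133 it had 10.8, 14.4, 14.7 and 11.1 CPM. Embryos SMH_126 and SMH_129 of the control lay among the *Smg6*-iKO values, and embryos SMH_125 and SMH_131 lay below them. The log2 fold change of 0.44 ± 0.23 (SE) therefore carried a wide interval from -0.072 to 0.94 (adjusted p = 0.372), and fell to 0.26 without the control library of embryo SMH_131.

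The other 5 genes were close to 0 on the log2 scale, with *Bbc3* at -0.018 ± 0.17, *Bcl2l11* at 0.023 ± 0.086, *Bad* at 0.037 ± 0.072, *Bcl2l1* at 0.087 ± 0.077 and *Mcl1* at -0.015 ± 0.048 (SE). For *Mcl1* the 95% interval ran from -0.12 to 0.092, the narrowest of the 10. The interval of *Bbc3*, from -0.39 to 0.35, was wide enough to hold a change of either sign.

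**Figure D3:**
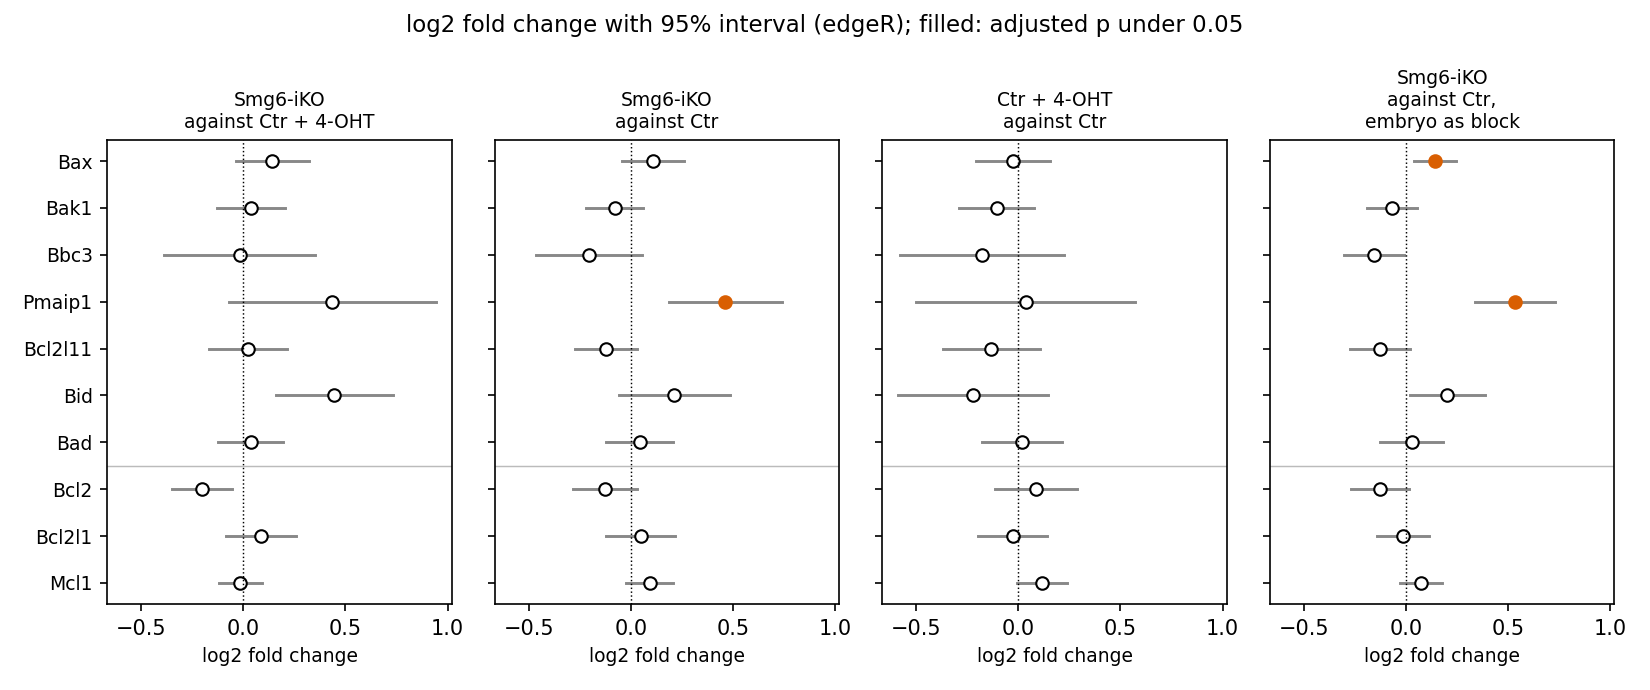
log2 fold change (horizontal axis) of each gene with its 95% interval from edgeR, in the 3 comparisons and in *Smg6*-iKO against Ctr with the embryo as a block. A filled point marks an adjusted p under 0.05, and the horizontal line divides the pro-apoptotic genes above from the protective genes below. *Pmaip1* is filled in both panels of *Smg6*-iKO against Ctr and *Bax* is filled with the block alone.

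The comparison of *Smg6*-iKO with Ctr holds the genotype fixed and changes the 4-OHT treatment and the activity of the recombinase together with the deletion. Of the 10 genes, 1 was called, *Pmaip1*, against a background of 9.25% of the 17974 genes tested (1663 genes, 767 higher and 896 lower, or 1089 and 694 with upper-quartile scaling and 550 and 1405 with the length correction), so that the share of the family called was near that of all genes. The medians were 0.043 over the pro-apoptotic and 0.048 over the protective genes, and 0.0055 over all genes tested.

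*Pmaip1* had 9.54, 9.17 and 8.99 CPM in Ctr embryos SMH_128, SMH_132 and SMH_133. The 4 *Smg6*-iKO libraries, from 10.8 to 14.7 CPM, lay above all 3. Its log2 fold change was 0.46 ± 0.13 (SE), a 1.38-fold higher level with a 95% interval from 1.14 to 1.67-fold (adjusted p = 0.0452, edgeR). The call was lost when the library of any of the Ctr embryos, or of *Smg6*-iKO embryos SMH_128, SMH_132 or SMH_133, was left out, with adjusted p from 0.0601 to 0.133, and with limma-voom (0.0597), the length correction (0.0563) and the fit over 11 libraries (0.252).

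Because embryos SMH_128, SMH_132 and SMH_133 gave both libraries, the same comparison was fitted with the embryo as a block. There, 2 of the 10 genes were called, *Pmaip1* and *Bax*, both higher, against a background of 21.4% of genes (3854, of which 1843 were higher, or 1344 of 4076 with the length correction). The share called was again near that of all genes. *Pmaip1* was higher in *Smg6*-iKO by 0.53 ± 0.093 (SE) on the log2 scale (adjusted p = 0.000563). Within embryos SMH_128, SMH_132 and SMH_133 its CPM rose from 9.54 to 14.4, from 9.17 to 14.7 and from 8.99 to 11.1, which is 1.51, 1.60 and 1.24-fold. This call was kept when each embryo was left out of the blocked fit, with adjusted p from 3.50e-05 to 0.00329. For this gene and all others, the blocked SE and p draw on the spread of other genes. They do not measure the spread between these embryos alone.

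*Bax* rose by 0.14 ± 0.049 (SE) on the log2 scale in the blocked fit (adjusted p = 0.0425, 95% interval 0.042 to 0.25), a 1.11-fold difference. Its CPM went from 85.0 to 97.3 in embryo SMH_128, from 78.6 to 87.5 in embryo SMH_132 and from 80.5 to 85.3 in embryo SMH_133, higher in 3 of 3. The call was lost without embryo SMH_128 (adjusted p = 0.0716), SMH_132 (0.131) or SMH_133 (0.139), without the block (0.344) and with the length correction added to it (0.0765). Of the exon length of *Bax*, 12.2% is shared with *Gm45808* on the same strand, where reads were assigned to neither gene.

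*Bbc3* went the other way in part. It had 94.9, 70.4 and 82.1 CPM in Ctr embryos SMH_128, SMH_132 and SMH_133 and 83.7, 75.9 and 62.5 CPM in their *Smg6*-iKO libraries, lower in embryos SMH_128 and SMH_133 and higher in embryo SMH_132. The blocked log2 fold change was -0.16 ± 0.069 (SE, adjusted p = 0.123). Without embryo SMH_132 it was -0.29 and called lower (adjusted p = 0.000989), and without embryo SMH_128 it was -0.14 and called lower (0.0286). Without embryo SMH_133 it was -0.028 (0.896), so this value rests on which embryos enter the fit. *Bbc3* and *Pmaip1* both encode BH3-only proteins and are known targets of p53. Their CPM went in opposite directions within embryos SMH_128 and SMH_133 and rose together within embryo SMH_132. Over the 11 libraries their Pearson's r was 0.58 on the log2 scale. The part of p53 in either gene was not tested.

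Of the remaining genes, *Bid* and *Mcl1* were higher in *Smg6*-iKO in 3 of 3 embryos, by 0.090 to 0.33 and 0.012 to 0.18 on the log2 scale, and *Bcl2* was lower in 3 of 3, by values from -0.21 to -0.0038. None of the 3 was called in the blocked fit, where *Bid* had 0.20 ± 0.087 (SE, adjusted p = 0.108), *Bcl2* -0.13 ± 0.068 (0.202) and *Mcl1* 0.074 ± 0.049 (0.312). *Bak1*, *Bcl2l11*, *Bad* and *Bcl2l1* changed sign between embryos, and their adjusted p lay between 0.222 and 0.907.

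**Figure D4:**
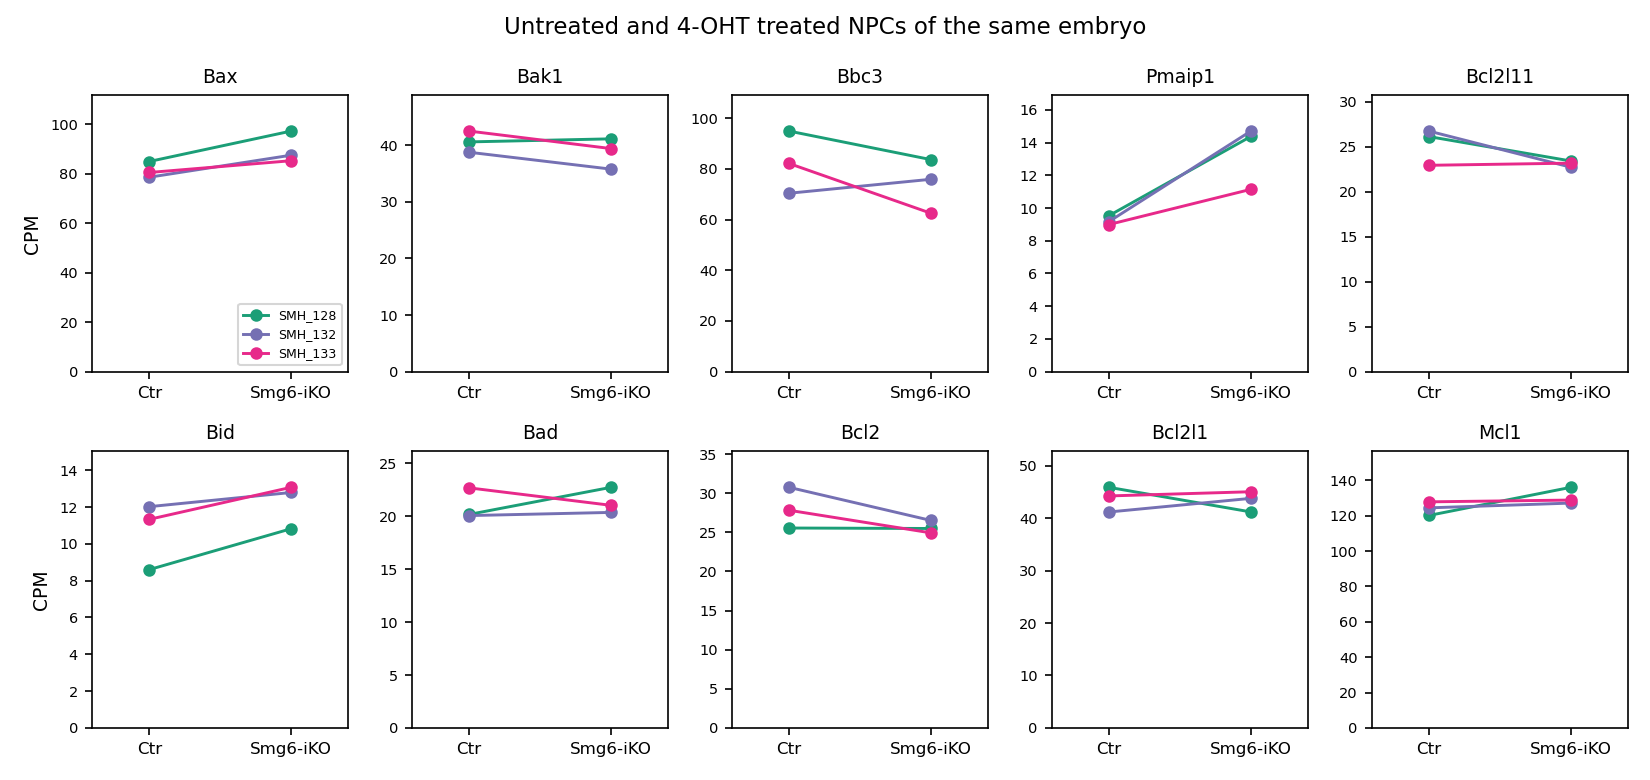
CPM of the 10 genes in the untreated (Ctr) and 4-OHT treated (*Smg6*-iKO) NPCs of embryos SMH_128, SMH_132 and SMH_133, with a line joining the libraries of an embryo and vertical axes that start at 0. All 3 lines climb for *Bax*, *Pmaip1*, *Bid* and *Mcl1*, whereas those of *Bbc3* cross.

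In the comparison of the controls, Ctr + 4-OHT against Ctr, both groups had intact *Smg6* and differed in the recombinase and in 4-OHT. Here 0 of the 10 genes were called by edgeR, DESeq2 or limma-voom, against a background of 0.221% in edgeR (39 of 17665 genes, 7 higher and 32 lower). At an unadjusted p under 0.05 in edgeR stood 0 of the 10, beside 8.28% of all genes tested. *Mcl1*, which encodes a short-lived protective protein, was the 1 gene of the 10 whose groups did not overlap, beside 8.71% of all genes tested. It had 120.1, 124.4 and 127.8 CPM in Ctr embryos SMH_128, SMH_132 and SMH_133, and 133.9, 129.3, 135.3 and 139.7 CPM in Ctr + 4-OHT embryos SMH_125, SMH_126, SMH_129 and SMH_131. Its log2 fold change was 0.12 ± 0.055 (SE, adjusted p = 0.625), with a 95% interval from -0.0051 to 0.24. *Smg6*-iKO had 127.1 to 136.8 CPM of *Mcl1*, overlapping both controls. The medians of the pro-apoptotic and the protective genes were -0.11 and 0.086, beside 0.0045 over all genes tested.

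The 2 sides of the family were also set against each other in each library, as the mean log2 CPM of the 7 pro-apoptotic genes minus that of the 3 protective genes. CPM are not scaled by exon length, so the sign of this difference does not show which side was more abundant. Summed per kilobase of exon, the 7 pro-apoptotic genes exceeded the 3 protective genes in each of the 11 libraries. These sums also depend on the number of genes, and came closest in Ctr + 4-OHT embryo SMH_131, at 103.9 and 54.41 CPM per kb. The difference in mean log2 CPM was -0.92 ± 0.038 (SD, n = 3) in Ctr. It was -1.08 ± 0.20 (n = 4) in Ctr + 4-OHT, and -0.87 ± 0.11 (n = 4) in *Smg6*-iKO. The ranges overlapped, from -0.96 to -0.88 in Ctr, from -1.34 to -0.86 in Ctr + 4-OHT and from -1.004 to -0.75 in *Smg6*-iKO. The lowest value belonged to Ctr + 4-OHT embryo SMH_131, which had the fewest CPM of *Bax*, *Bbc3*, *Pmaip1* and *Bcl2l11* of the 4 libraries of its group and the most of *Bcl2l1* and *Mcl1*. The ratio of *Bax* to *Bcl2*, an often used index of this balance, was 17.0 ± 2.24 per kb in Ctr, 15.7 ± 2.09 in Ctr + 4-OHT and 19.8 ± 1.72 in *Smg6*-iKO. The *Smg6*-iKO libraries spanned 18.1 to 22.2 and overlapped both Ctr (14.9 to 19.3) and Ctr + 4-OHT (13.7 to 18.5). No test was made of these summary values, as the genes were chosen with earlier results known.

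Across the 11 libraries, *Bax* and *Pmaip1* were high and low in the same libraries, with Pearson's r = 0.91 and Spearman's rho = 0.96 on the log2 scale. This was the one pair of 45 above 0.7, and the median over pairs was -0.19. Over the 8 treated libraries, which come from 8 different embryos, r was 0.92, and without embryos SMH_125 and SMH_131 of Ctr + 4-OHT, the farthest from the median of *Pmaip1*, it was 0.77. The libraries share TMM scaling, and 3 embryos gave 2 of the 11, so these values are a description with no p. Among the 18123 genes kept over all libraries, those most like *Pmaip1* included *Perp* (r = 0.96) and *Fas* (0.94).

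**Figure D5:**
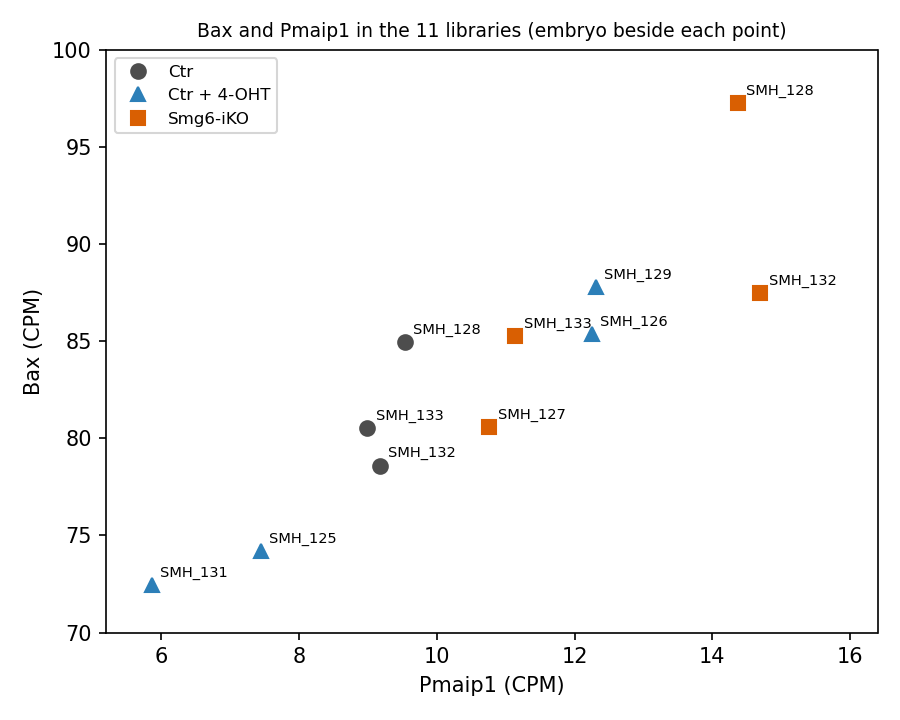
CPM of *Bax* (vertical axis, which does not start at 0) against CPM of *Pmaip1* in the 11 libraries, with the embryo named beside each point. Ctr + 4-OHT embryos SMH_131 and SMH_125 lie lowest on both axes, and *Smg6*-iKO embryos SMH_128 and SMH_132 lie farthest right.

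Promoter windows from RefSeq (GRCm38.p6, 250 bases before to 50 after the start site) were available for 9 of the 10 genes, in 15 windows, and *Pmaip1* was not among them. Each was searched on both strands for the half-site of p53, the stress-responsive factor that is known to induce several of these genes, and for TGATGNAA, the response element of ATF4. The p53 half-site is found in 8.36% of all 32851 windows and TGATGNAA in 3.97%. Among the 15 windows, the half-site occurred once, in *Bax*, and TGATGNAA in 0. The *Bax* window is printed as the gene that followed *Pmaip1* across the libraries, with the half-site in capitals, and the first *Bbc3* window beside it as that of a known p53 target that was not called higher. The *Bax* window is chr7:45466849-45467148 on the minus strand, with the half-site beginning at position -201 relative to the start site, and a GC content of 57.3%. The *Bbc3* window is chr7:16309333-16309632 on the plus strand, with a GC content of 76.0%. A match of letters is a description and not evidence of binding.
Bax: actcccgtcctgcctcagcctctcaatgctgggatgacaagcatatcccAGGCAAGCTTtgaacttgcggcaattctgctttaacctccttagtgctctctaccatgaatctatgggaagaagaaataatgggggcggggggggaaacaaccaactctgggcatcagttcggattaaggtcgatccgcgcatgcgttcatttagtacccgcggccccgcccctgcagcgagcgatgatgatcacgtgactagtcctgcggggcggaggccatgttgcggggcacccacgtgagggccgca
Bbc3: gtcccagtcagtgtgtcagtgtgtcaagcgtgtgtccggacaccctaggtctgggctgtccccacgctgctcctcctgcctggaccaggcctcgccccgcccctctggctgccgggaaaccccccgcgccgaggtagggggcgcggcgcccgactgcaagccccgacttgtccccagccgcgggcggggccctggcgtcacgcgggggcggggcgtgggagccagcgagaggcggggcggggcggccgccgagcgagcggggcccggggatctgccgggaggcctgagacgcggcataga

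Around the family, 65 genes of 7 lists on apoptosis were examined, of which 54 were tested: other BCL2 family genes, the apoptosome and caspases, inhibitors of apoptosis, death receptors with their signalling partners, mitochondrial partners, turnover of BCL2 proteins, and transcription regulators. Against Ctr + 4-OHT, 2 of the 54 were called by edgeR, both higher, beside 1.17% of all genes. The same 2 were called by limma-voom. DESeq2, with 873 calls over all genes against 206 by edgeR, called 5 of the 63 list genes with any read, a wider set than the 54. Besides the same 2 these were lower, *Bok* and *Birc5* among them. *Atf4*, which encodes a transcription factor of the integrated stress response, had 349 to 418 CPM in *Smg6*-iKO and 268 to 322 CPM in Ctr + 4-OHT, a log2 fold change of 0.38 ± 0.075 (SE, adjusted p = 0.0407). *Casp2*, the gene of an initiator caspase, had 84.3 to 88.0 CPM against 65.2 to 73.7 CPM, a log2 fold change of 0.30 ± 0.053 (SE, adjusted p = 0.0276).

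Against Ctr, 6 of the 54 were called by edgeR, 3 higher and 3 lower, a share near the 9.25% of all genes. The higher ones were *Atf4* (0.48 ± 0.080, adjusted p = 0.00727), *Casp2* (0.24 ± 0.052, 0.022) and *Apaf1* (0.20 ± 0.056, 0.0464), whose product is the scaffold of the apoptosome. Those lower were *Bok* (-0.46 ± 0.086, 0.0116), the third effector-like gene of the BCL2 family, *Birc5* (-0.34 ± 0.057, 0.00711), which encodes survivin, a protein of mitosis as well as of survival, and *Vdac2* (-0.21 ± 0.059, 0.0487), a channel of the outer mitochondrial membrane that binds BAK. *Bok* had 17.9 to 22.8 CPM in *Smg6*-iKO, and 25.9 to 29.4 CPM in Ctr. The call of *Apaf1* was lost with limma-voom, which called the other 5. DESeq2, with 2421 calls over all genes, called all 6 and *Birc2* among the 62 list genes with any read. Against Ctr + 4-OHT, *Bok* and *Birc5* had adjusted p of 0.0999 and 0.0692, with no overlap between groups. Between the controls 0 of the list genes tested were called by edgeR, DESeq2 or limma-voom, beside 0.221% of all genes in edgeR, and 1 of the 54 stood under an unadjusted p of 0.05 in edgeR, beside 8.28% of all genes.

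With the embryo as a block, 17 of the 54 were called, 8 higher and 9 lower, beside 21.4% of all genes (1843 higher and 2011 lower). Higher, by 0.22 to 0.52 on the log2 scale, were *Atf4*, *Casp2*, *Apaf1*, the BH3-only gene *Hrk*, the mitochondrial protease gene *Htra2*, the death receptor genes *Fas* and *Tnfrsf10b*, and *Myc*. Lower, with values from -0.52 to -0.16, were *Bok*, the BH3-only gene *Bmf*, the mitophagy receptor genes *Bnip3* and *Bnip3l*, the inhibitor of apoptosis genes *Xiap*, *Birc2* and *Birc5*, *Vdac2*, and *Fbxw7*, whose product directs MCL1 to degradation. Of the tested inhibitors of apoptosis 3 of 5 were lower, and of the other BCL2 family genes 4 of 9, counts too small to assign the lists a direction. Among the higher genes *Fas* had the largest log2 fold change, at 0.52 ± 0.094 (SE, adjusted p = 0.000761). The list of death receptors and their partners holds 3 receptor genes (*Fas*, *Tnfrsf10b* and *Tnfrsf1a*), the adaptor and kinase genes *Fadd*, *Tradd* and *Ripk1*, the caspase gene *Casp8*, and *Cflar*, which encodes an inhibitor of caspase 8 activation. All 8 had positive log2 fold changes against each control, where 52.8% and 51.0% of all genes were positive, with medians of 0.13 against Ctr + 4-OHT and 0.17 against Ctr. These comparisons share the *Smg6*-iKO libraries, and 0 of the 8 were called in either comparison without the block by edgeR, DESeq2 or limma-voom. At an unadjusted p under 0.05 in edgeR stood 1 of the 8 against Ctr + 4-OHT and 0 against Ctr, beside 16.7% and 26.9% of all genes tested. *Tnfrsf10b* and *Fas* differed most of the 8 against Ctr + 4-OHT, and both varied widely within it. Embryos SMH_125 and SMH_131 had 5.43 and 4.31 CPM of *Fas*, and SMH_126 and SMH_129 had 9.80 and 10.2 CPM. For *Tnfrsf10b* these were 11.4 and 8.41 CPM, and 15.7 and 17.2 CPM.

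Markers of several cell types moved with the comparison to Ctr. Of the 8 progenitor markers, 5 were lower in *Smg6*-iKO (*Sox2*, *Pax6*, *Fabp7*, *Hes5* and *Prom1*), by -0.29 to -1.28 on the log2 scale, and against Ctr + 4-OHT 0 of 8 were called by edgeR or limma-voom (3 at an unadjusted p under 0.05 in each) and 1, *Hes5*, by DESeq2. Of all genes, edgeR called 9.25% against Ctr and 1.17% against Ctr + 4-OHT, and 26.9% and 16.7% stood at an unadjusted p under 0.05. The astrocyte marker *Gfap* was higher against Ctr by 1.33 ± 0.32 (SE) on the log2 scale (adjusted p = 0.0288), with overlapping groups. The other 3 astrocyte markers were not called by edgeR, with *Aldoc* at -0.25 ± 0.082 (SE, adjusted p = 0.0788, called lower by DESeq2), *Aqp4* at 0.11 ± 0.19 and *S100b* at 0.56 ± 0.37. All 6 neuronal markers had positive log2 fold changes against Ctr, with a median of 0.28. Of these 0 were called by edgeR or limma-voom (4 at an unadjusted p under 0.05 in each), and DESeq2 called 4 higher (*Tubb3*, *Dcx*, *Stmn2* and *Snap25*). None of the 4 mesenchymal markers was called against Ctr by edgeR (1 at an unadjusted p under 0.05), DESeq2 or limma-voom, and *Col1a1* had mean levels of 57.1 CPM in *Smg6*-iKO and 24.0 CPM in Ctr. In the blocked fit, in which *Pmaip1* and *Bax* were called, 6 of 8 progenitor markers were lower and 4 of 6 neuronal markers higher, beside 21.4% of all genes called in either direction. Of 4 astrocyte markers 2 were higher and 1 lower, 3 of 5 markers of the oligodendrocyte lineage were higher, and of 4 mesenchymal markers 1 was higher (*Col1a1*) and 1 lower (*Pdgfrb*). Between the controls, both with intact *Smg6*, 7 of 8 progenitor markers were negative in Ctr + 4-OHT against Ctr (median log2 fold change -0.26), and all 6 neuronal markers (median 0.22) and all 5 of the oligodendrocyte lineage (median 0.27) were positive. None of these was called by edgeR, DESeq2 or limma-voom, and 3 of the 8 progenitor markers, 0 of the 6 neuronal markers and 2 of the 5 of the oligodendrocyte lineage stood at an unadjusted p under 0.05 in edgeR, beside 8.28% of all genes. The summed level of the progenitor markers was 5024 to 5234 CPM in Ctr, 4451 to 5456 CPM in Ctr + 4-OHT and 4327 to 4915 CPM in *Smg6*-iKO. The 6 neuronal markers summed to 1737 to 1905 CPM, 1590 to 2577 CPM and 2024 to 2327 CPM. In bulk RNA, fewer cells of a type and less RNA per cell cannot be told apart, and the part of these markers in the differences of *Pmaip1*, *Bax* and the pathway genes was not tested.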

How the data were processed

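The authors sequenced stranded total RNA libraries of E13.5 NPCs and deposited unnormalized counts of reads per gene, 1 file per library. Per the labels and the study's methods, bcl2fastq 1.8.4, STAR 2.5.4b and featureCounts 1.5.0 were used with GRCm38 and Ensembl release 92, and only reads mapping to 1 position and 1 gene were counted. Multi-mapping reads and reads in exons shared by 2 genes on a strand are therefore missing. Of 53801 identifiers, 53620 were paired with a symbol, and GENCODE M21 (GRCm38) gave positions. Libraries had 26.4 M to 33.8 M counts, and no 2 libraries of a group were duplicates (chi-square per gene 9.99 to 38.6).

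Groups came from the labels. Tests used edgeR 4.0.16 in R 4.3.3 (filterByExpr, TMM, quasi-likelihood test, Benjamini-Hochberg over all genes tested, adjusted p under 0.05) on the 2 groups compared. CPM were computed after TMM over 11 libraries, with a prior count of 2 for log2 values. Embryos SMH_128, SMH_132 and SMH_133 pair Ctr with *Smg6*-iKO by animal, and the deviations of their libraries correlated (r = 0.33, 0.40 and 0.43), so a fit with the embryo as a block was added. *Smg6*-iKO embryo SMH_127 has no partner and adds nothing to the blocked difference.

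The family, the lists and the tests were chosen with earlier results of these data known. Named genes were the 10 family genes, *Smg6*, genes of the apoptosis lists with adjusted p under 0.05 in any comparison or in the blocked fit, and the 3 genes most correlated with each family gene called without the block, of which 1 is not reported here. Cell type markers were named after their values were seen. Alternatives were DESeq2 size factors, upper-quartile scaling, no filter, a minimum of 10 counts in every library, 1 fit of all 11 libraries, DESeq2 1.42.0 (Wald test), limma-voom (limma 3.58.1), a loess correction for gene length (span 0.3), each library left out in turn, and the block with and without the length correction. Leaving out embryos in the blocked fit was added after seeing the data. The tests were checked on simulated data.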

Additional observations from a re-analysis of the deposited data

Results flagged for a closer look

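*Bcl2l1* had 46.7 CPM in Ctr + 4-OHT embryo SMH_131, apart from the other 3 libraries of the group, which had 41.4, 41.7 and 41.8 CPM. The gap to the nearest library was 0.928 of the range of the group, above Dixon's critical value for 4 samples. This was 1 flag among 20 groups examined, and chance flags about 1 in 20 groups. Without that library, the log2 fold change of *Bcl2l1* in *Smg6*-iKO against Ctr + 4-OHT remained uncalled, as in the other fits that left out 1 library (0.025 to 0.13).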

How the results depend on the processing

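Of 260 values of family log2 fold changes with 1 library or embryo left out, 226 kept their direction and their side of the threshold, as did 246 of 260 under the other settings. Family genes called against Ctr + 4-OHT were 1 with DESeq2's test. Against Ctr they were 0 in the fit of all 11 libraries, with limma-voom and with the length correction, and 0 to 1 with 1 library left out. The embryo as a replicate block gave 2, the block with the length correction 1 (*Bax* at an adjusted p of 0.0765), and the block without 1 embryo 1 to 3. *Bbc3* and *Bcl2* were called lower there without SMH_128, and *Bbc3* without SMH_132. Over all genes, calls against Ctr + 4-OHT were 418 without the filter, 484 in the fit of 11 libraries, 873 with DESeq2 and 66 to 174 with 1 library left out. Against Ctr they were 2714, 796 and 2421, and 570 to 2524 with 1 library left out, 3854 with the block and 4076 with the block and length correction. Between the controls they were 198, 60 and 169, and 5 to 54 with 1 library left out. The block changed no other call among the 10 genes, and the cause of these shifts was not tested.

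Signs turned only for uncalled values. Against Ctr + 4-OHT, *Mcl1* was 0.0026 with upper-quartile scaling, *Bbc3* 0.0050 with limma-voom, and *Bak1*, *Bcl2l11* and *Bad* were -0.014, -0.032 and -0.018 with the length correction. Against Ctr, *Bcl2l1* was -0.013 with the block and -0.055 with the block and length correction, under which *Bad* was -0.011. *Pmaip1* between the controls was -0.032 with limma-voom. With 1 library left out, log2 fold changes against Ctr + 4-OHT ranged from -0.0070 to 0.084 for *Bak1*, -0.15 to 0.13 for *Bbc3*, -0.054 to 0.070 for *Bcl2l11* and -0.014 to 0.065 for *Bad*. Against Ctr the range was -0.013 to 0.090 for *Bcl2l1*, and in the blocked fit -0.046 to 0.11 for *Bad* and -0.064 to 0.055 for *Bcl2l1*. Between the controls it was -0.073 to 0.026 for *Bax*, -0.014 to 0.083 for *Bad*, -0.071 to 0.0065 for *Bcl2l1* and -0.12 to 0.22 for *Pmaip1*. Each group holds 3 or 4 embryos, and the part of read number in the spread of single genes was not tested.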
